A study of Mus musculus with 33 samples.

Results

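The 35 genes described here carry out or time the copying of DNA in S phase. The rule takes them by symbol, for what their products are known to do, and uses no measured value, although the set was proposed with earlier results of these data known. All 35 were found among the 55376 gene symbols of the count tables. They hold 8 genes of origin licensing, 4 of helicase activation, 4 polymerase and primase subunits, 5 genes of the sliding clamp and its loader, 3 of Okazaki fragment joining and single-strand binding, 4 of nucleotide supply, 3 of chromatin assembly and histone mRNA, and 4 of G1/S control.

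Hematopoietic stem cells (HSCs, Lin-cKit+Sca1+CD34-Flk2-CD150+), common lymphoid progenitors (CLPs, Lin-Il7ra+Flk2+) and granulocyte–monocyte progenitors (GMPs, Lin-Sca1-cKit+CD34+Fcgr+) were sorted from the bone marrow of old C57BL/6 male mice, aged 24 to 29 months, and profiled by total RNA sequencing. Untreated mice (O-WT, labelled Control) were compared with mice that drank 12 mM nicotinamide riboside (NR), a precursor of NAD+, for 4 to 6 weeks (O-NR), and with mice left without NR for 2 months after the supply (O-NR-RC). Of the 33 libraries, 24 belong to cohort 2, where each cell type has 4 O-WT and 4 O-NR libraries. The 9 libraries of cohort 1 are all HSCs, with 2 from O-WT mice, 4 from O-NR mice and 3 from O-NR-RC mice. No young mice are among these libraries, so every group shares the old age and the wild-type background. One label field calls the GMPs common myeloid progenitors, while their titles call them GMPs, which is the name used here. The labels do not say that each library is 1 mouse, so the p-values measure the spread between libraries.

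Replication begins in G1, when Cdc6 and Cdt1 load the ring of Mcm2 to Mcm7 onto origins. At the start of S phase Cdc45, the GINS complex and Mcm10 turn that ring into a moving helicase, the primase and polymerases copy both strands on the Pcna clamp, and Fen1 and Lig1 join the fragments of the lagging strand. E2F transcription factors drive most of these genes as cells pass from G1 into S, and adult HSCs are known for resting outside the cycle most of the time while progenitors divide often. In sorted bulk RNA, fewer cells in S phase and less of each transcript per cell cannot be told apart.

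The depth ran from 4792380 to 23816042 counted reads. Levels are given in CPM, the counts scaled to a common library size after TMM scaling, which was done within each cohort, so that levels of the 2 cohorts are on separate scales. The sorted populations carried their markers. The 8 HSC markers summed to between 1554 and 2229 CPM in the HSC libraries of cohort 2 and to at most 129 CPM in its CLP and GMP libraries. The 7 CLP markers summed to between 1870 and 4369 CPM in CLPs and to at most 48.9 CPM elsewhere in that cohort, and the 6 GMP markers to between 16901 and 25047 CPM in GMPs and at most 526 CPM elsewhere. None of those 21 markers was at 0 in a whole group. Olfactory and vomeronasal receptor genes, which blood cells are not known to use, were summed as a background level. They gave 1495 to 3712 CPM in the HSC libraries of cohort 2, 1125 to 2084 CPM in GMPs, 1952 to 5014 CPM in CLPs and 5934 to 10459 CPM in cohort 1. The 6 markers of B and plasma cells summed to 393 to 844 CPM in CLPs and 24.6 to 468 CPM in HSCs and GMPs of cohort 2. In cohort 1 the 8 HSC markers summed to 1596 to 1791 CPM in O-WT, 973 to 2525 CPM in O-NR and 847 to 1982 CPM in O-NR-RC. The B and plasma cell markers there summed to 45.7 to 48.0 CPM, 37.9 to 55.6 CPM and 52.0 to 177 CPM.

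The promoters show the sequence that the literature ties to these genes. Letters of E2F-type sites (TTTCCCGC, TTTCGCGC, TTTGCCGC or TTTGGCGC on either strand) were searched in the 250 bases before and 50 bases after each start in the RefSeq promoters (GRCm38.p6), which matched 29 of the 35 members. Mcm4, Gins1, Gins2, Pole, Rfc2 and Ccne2 had no entry. Of the 29, 11 held such letters (37.9%), against 704 of 27031 genes overall (2.60%). The 11 are Cdc6, Cdt1, Mcm3, Mcm5, Mcm6, Mcm7, Pola1, Pold1, Rfc3, Lig1 and Dtl. The CCAAT box was present in 17 of the 29 (58.6%) against 41.0% of all genes, and the CHR element TTTGAA or TTCGAA, known from promoters of mitotic genes, in 5 (17.2%) against 21.7%. A match is a stretch of letters and not a measured site of binding.

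The windows below are shown because they carry the letters in members whose RNA values the results turn on. Each is 30 bases, 5′ to 3′ on the gene's own strand and upstream of the start, with the matched letters in capitals. In Mcm5 and in the first window of Mcm6, matches on both strands overlap.
Mcm5, chr8:75109347-75109376: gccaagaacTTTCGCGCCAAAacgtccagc
Mcm6, chr1:128359795-128359824: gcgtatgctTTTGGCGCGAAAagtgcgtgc
Mcm6, chr1:128359734-128359763: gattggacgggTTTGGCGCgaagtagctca
Cdc6, chr11:98908002-98908031: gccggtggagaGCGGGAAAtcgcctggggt
Pola1, chrX:93632275-93632304: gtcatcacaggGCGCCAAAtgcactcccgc
Rfc3, chr5:151651209-151651238: ccggaagtgacgtcgcacgcTTTCGCGCtc
Dtl, chr1:191575545-191575574: caatcagaaagcgtgacgtcagTTTGGCGC

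Mcm5, Cdc6 and Dtl, which hold these letters, differed more between HSCs and both progenitors than the median of the 35 members. Pola1 and Pold1 hold them too and were below that median in GMPs. Their role ran from 1.97 to 2.02 there, against 2.15 on the log2 scale. Mcm3 and Lig1, which also hold them, were below the median of 1.64 in CLPs. Mcm3 was at 1.22 and the role of Lig1 ran from 1.47 to 1.59. Members with the letters thus lay on both sides of the median. Rfc3, also with the letters, was among the members that differed least. Rrm2 and Mcm10, 2 of the 3 members with the largest differences from HSCs, had promoter entries and no match.

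The first question was how the machinery of replication differed between stem cells and progenitors of untreated old mice. In CLPs 34 of the 35 members were higher than in HSCs and none was lower (edgeR's quasi-likelihood test over all genes, Benjamini–Hochberg adjusted p below 0.05), where 9.57% of all 20044 genes tested were called higher and 30.3% called in all. At an unadjusted p below 0.01 the count was 33, with 28.1% of all genes past that threshold. The median log2 fold change of the members was 1.64 against 0.04 over all genes tested. In GMPs, 34 of 35 were again higher and none lower, where 21.0% of genes were called higher and 46.8% in all (34 members and 40.0% of genes at an unadjusted p below 0.01), with a median of 2.15 against -0.40 over all genes. The libraries did not overlap for 33 members in CLPs against HSCs (7.98% of all genes lay wholly above) and for 34 in GMPs against HSCs (19.4%). The share of higher genes among all genes called moved with the scaling, from 31.6% with TMM to 43.0% with DESeq2's size factors and 51.2% with the upper quartile in CLPs, and from 45% to 60.0% and 37.9% in GMPs. The members' median minus that of all genes stayed at 1.59, 1.60 and 1.58 in CLPs and at 2.55, 2.52 and 2.54 in GMPs.

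**Figure D1:**
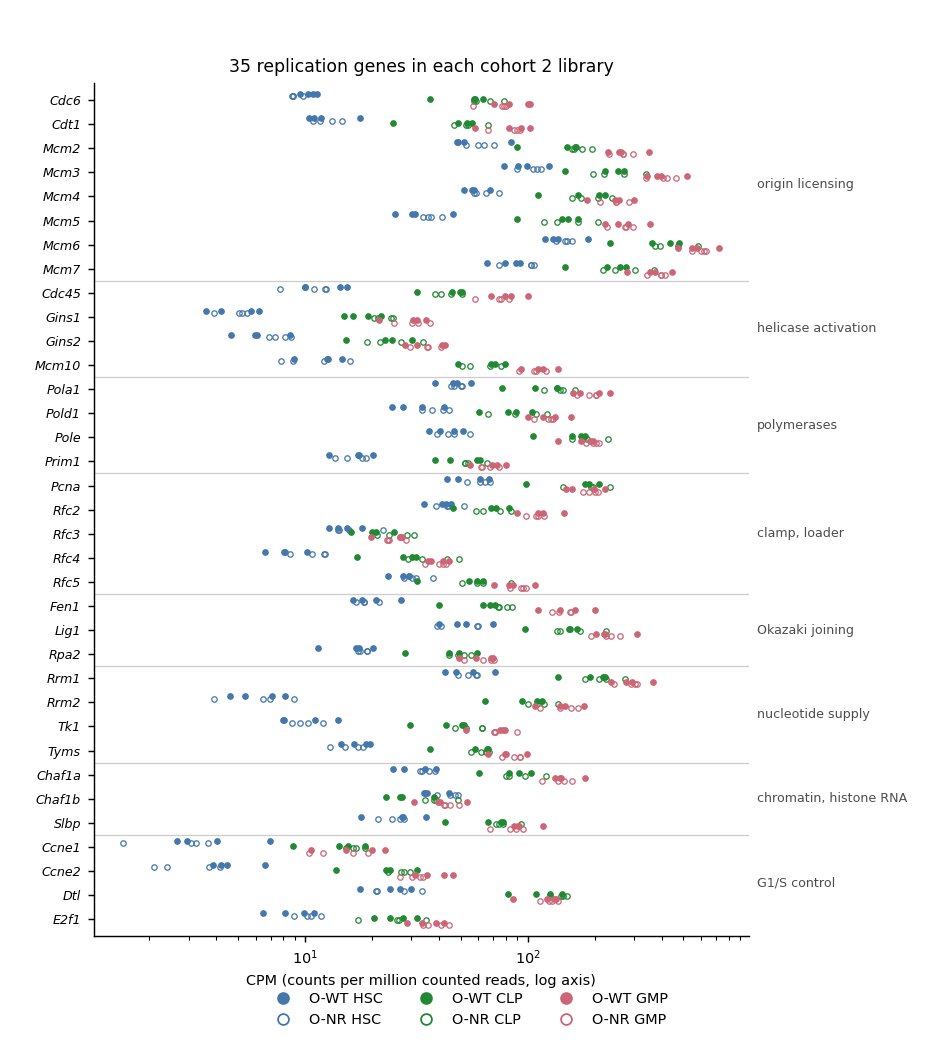
Level of each of the 35 members in every cohort 2 library, in CPM on a log axis, grouped by role, with O-WT as filled and O-NR as open circles. The HSC libraries sit to the left of CLP and GMP libraries in nearly every line, and in Chaf1b and Rfc3 the libraries of all 3 cell types overlap.

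Origin licensing was higher throughout. All 8 members were called in both comparisons, with log2 fold changes of 1.22 to 2.39 in CLPs and 2.00 to 3.06 in GMPs. Mcm6, a subunit of the helicase ring, had the highest level for its length of the whole set. Its mean over 4 O-WT libraries was 30.8 ± 6.4 CPM per kb of exon (SD) for HSCs, 80.9 ± 23.1 for CLPs and 125 ± 22 for GMPs. Length was taken as all annotated exon bases of a gene, so the order of members per kb depends on the annotation. The 4 O-WT HSC libraries had Mcm6 levels of 137, 120, 130 and 187 CPM, CLPs 435, 360, 234 and 480 CPM, and GMPs 578, 724, 549 and 476 CPM. HSCs were thus below every progenitor library, while the lowest GMP library lay just under the highest CLP library.

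Cdc6, the ATPase that recruits the ring to origins, was 10.9, 9.46, 10.3 and 11.3 CPM in O-WT HSCs, 57.4, 57.9, 36.6 and 62.9 CPM in CLPs, and 82.7, 99.9, 103 and 71.0 CPM in GMPs. The 3 cell types did not overlap. The log2 fold change of Cdc6 was 2.39 ± 0.18 (SE) in CLPs and 3.06 ± 0.18 in GMPs (edgeR adjusted p = 1.42e-12 and 3.77e-15). Mcm5, on chr8:75109569-75128439, rose by 2.08 ± 0.21 and 3.04 ± 0.22 on the same scale, the most among the ring's 6 subunits, and Mcm3 by 1.22 ± 0.20 in CLPs, the least.

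Helicase activation had the highest median of the 8 roles in GMPs, a log2 fold change of 2.65 over its 4 members, and 1.91 in CLPs. Mcm10, which helps to open the loaded helicase, had 8.89, 12.7, 12.6 and 14.7 CPM in O-WT HSCs, 78.9, 71.6, 48.5 and 68.7 CPM in CLPs and 111, 138, 117 and 93.3 CPM in GMPs. These 3 ranges did not overlap. Mcm10 was 5.58-fold higher in CLPs and 9.23-fold higher in GMPs than in HSCs. Cdc45, the member of this role with the highest level for its length, had 15.4, 9.99, 14.4 and 9.999 CPM in HSCs, 49.8, 45.6, 31.9 and 50.7 CPM in CLPs and 79.1, 100, 84.5 and 68.3 CPM in GMPs, again without overlap. Gins1 and Gins2, of the GINS complex, were among the members with the fewest reads in HSCs, at 3.59 to 6.204 and 4.65 to 8.53 CPM, and both were called higher in CLPs and GMPs.

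The polymerase and primase subunits moved as a narrow group in GMPs, with log2 fold changes between 1.97 and 2.02, and between 1.30 and 1.86 in CLPs. Pold1, the catalytic subunit of polymerase delta, had the highest level for its length among them. It was 33.4, 27.4, 24.6 and 42.2 CPM in O-WT HSCs, 81.8, 88.6, 60.6 and 105 CPM in CLPs and 117, 156, 133 and 101 CPM in GMPs. HSCs lay below both progenitors, and CLPs and GMPs overlapped at their highest and lowest libraries.

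The clamp and its loader had the lowest medians of the 8 roles, 0.96 in CLPs and 1.64 in GMPs. Pcna, the clamp itself, was 3.14-fold higher in CLPs and 3.26-fold higher in GMPs, while its loader subunits Rfc2 and Rfc3 were 1.68-fold and 1.39-fold higher in CLPs. Rfc3 was 15.5, 14.1, 12.8 and 18.1 CPM in O-WT HSCs, 25.1, 19.9, 16.1 and 20.9 CPM in CLPs, and 27.3, 26.6, 26.7 and 19.7 CPM in GMPs. HSCs and CLPs overlapped here. Its CLP call was the weakest of the 34, with a log2 fold change of 0.47 ± 0.18 and an edgeR adjusted p of 0.0469, and it was lost in 10 of the 12 fits that each left out 1 library and under 6 of 7 other settings. With the animal as a block, the log2 fold change of Rfc3 was 0.46 and the edgeR adjusted p was 0.0695. Its GMP call, 0.71 ± 0.18, held in every one of those fits. Rfc2 had 41.3, 34.4, 42.8 and 45.03 CPM in HSCs, 71.8, 68.6, 46.2 and 82.1 CPM in CLPs and 111, 146, 117 and 90.01 CPM in GMPs, without overlap, although its CLP call was lost under both looser filters on low counts (adjusted p = 0.134 and 0.136). Rfc4 was 3.28-fold and 4.72-fold higher, so that subunits of this loader differed by unequal amounts.

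Among the genes of Okazaki fragments, Fen1, the flap nuclease, Lig1, the ligase, and Rpa2, a subunit that coats single strands, were called higher in CLPs and GMPs, with log2 fold changes of 1.47 to 1.59 in CLPs. In GMPs they parted, from 1.87 for Rpa2 to 2.87 for Fen1. Fen1 was 20.9, 16.5, 18.1 and 26.9 CPM in O-WT HSCs, 67.8, 63.3, 40.1 and 71.6 CPM in CLPs and 163, 200, 139 and 112 CPM in GMPs, with no overlap between cell types. Lig1 had the highest level for its length in this role in HSCs, 12.4 ± 3.0 CPM per kb, and Fen1 in GMPs, 63.4 ± 15.5 (SD, n = 4). Its 4 HSC libraries had 48.1, 39.9, 53.1 and 70.1 CPM of Lig1, all below the CLP libraries (97.2 to 167 CPM) and the GMP libraries (202 to 310 CPM).

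Rrm2, the subunit of ribonucleotide reductase that is made anew in S phase, had the largest difference of all members. It lies on chr12:24708241-24714146 (mm10, plus strand). The O-WT HSC libraries had 4.61, 5.36, 8.12 and 7.13 CPM of Rrm2, CLPs 116, 94.8, 64.4 and 110 CPM, and GMPs 147, 180, 139 and 108 CPM. HSCs were far below every progenitor library, and CLPs and GMPs overlapped. Rrm2 was 15.5-fold higher in CLPs and 22.3-fold higher in GMPs, with log2 fold changes of 3.96 ± 0.22 and 4.48 ± 0.22 (edgeR adjusted p = 1.84e-15 and 7.94e-17). Its partner subunit Rrm1, which is longer lived, was 42.5, 47.7, 56.6 and 71.2 CPM in HSCs and 3.60-fold and 5.30-fold higher in CLPs and GMPs. For its length Rrm1 stood above Rrm2 in HSCs (4.95 ± 1.14 against 2.28 ± 0.58 CPM per kb), and Rrm2 above Rrm1 in GMPs (51.8 ± 10.7 against 26.7 ± 4.9). The annotated exon bases were 11012 for Rrm1 and 2771 for Rrm2. In CPM the mean of Rrm1 was above that of Rrm2 in HSCs (54.5 and 6.31) and in GMPs (294 and 143). The change of order thus appears only per kb. Tyms and Tk1, which make and salvage thymidine nucleotides, were 3.33-fold and 4.32-fold higher in CLPs and 4.58-fold and 6.78-fold higher in GMPs.

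Chaf1b was the exception. It encodes the middle subunit of chromatin assembly factor 1, which puts histones on new DNA, and lies on chr16:93883901-93906115. Its level was 44.3, 35.4, 34.4 and 34.8 CPM in O-WT HSCs, 38.0, 26.7, 23.2 and 27.3 CPM in CLPs, and 40.4, 53.3, 39.4 and 30.9 CPM in GMPs. The 3 cell types overlapped. The log2 fold change was -0.33 in CLPs (95% interval -0.69 to 0.02) and 0.12 in GMPs (-0.23 to 0.47; edgeR adjusted p = 0.156 and 0.555), and the intervals leave out a 2-fold difference. Without O-WT CLP replicate 1 the CLP value was -0.52 and called lower (edgeR adjusted p = 0.0484). Chaf1a, the large subunit of the same complex, was 27.9, 24.9, 34.5 and 38.7 CPM in HSCs, 104, 82.8, 60.2 and 91.3 CPM in CLPs and 133, 181, 141 and 139 CPM in GMPs, without overlap, and was 2.74-fold and 4.65-fold higher. Per kb of exon, Chaf1b stood above Chaf1a in HSCs (7.95 ± 1.011 against 3.56 ± 0.70 CPM per kb) and below it in CLPs (6.15 ± 1.37 against 9.55 ± 2.07) and GMPs (8.76 ± 1.98 against 16.8 ± 2.5). Slbp, which binds the end of histone mRNAs, was 2.49-fold higher in CLPs and 3.53-fold higher in GMPs.

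G1/S control was higher in all 4 members. E2f1, an activating E2F, was 6.49, 9.88, 8.12 and 10.98 CPM in O-WT HSCs, 27.4, 24.2, 20.4 and 31.8 CPM in CLPs and 38.7, 41.9, 33.5 and 28.7 CPM in GMPs, so that HSCs lay below both progenitors. Ccne2, a cyclin that activates Cdk2 at the G1/S border, was 4.91-fold higher in CLPs and 7.88-fold higher in GMPs, and Ccne1 3.46-fold and 4.02-fold. Dtl, which recognizes Cdt1 for destruction once replication has begun, was 4.77-fold and 4.75-fold higher.

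**Figure D2:**
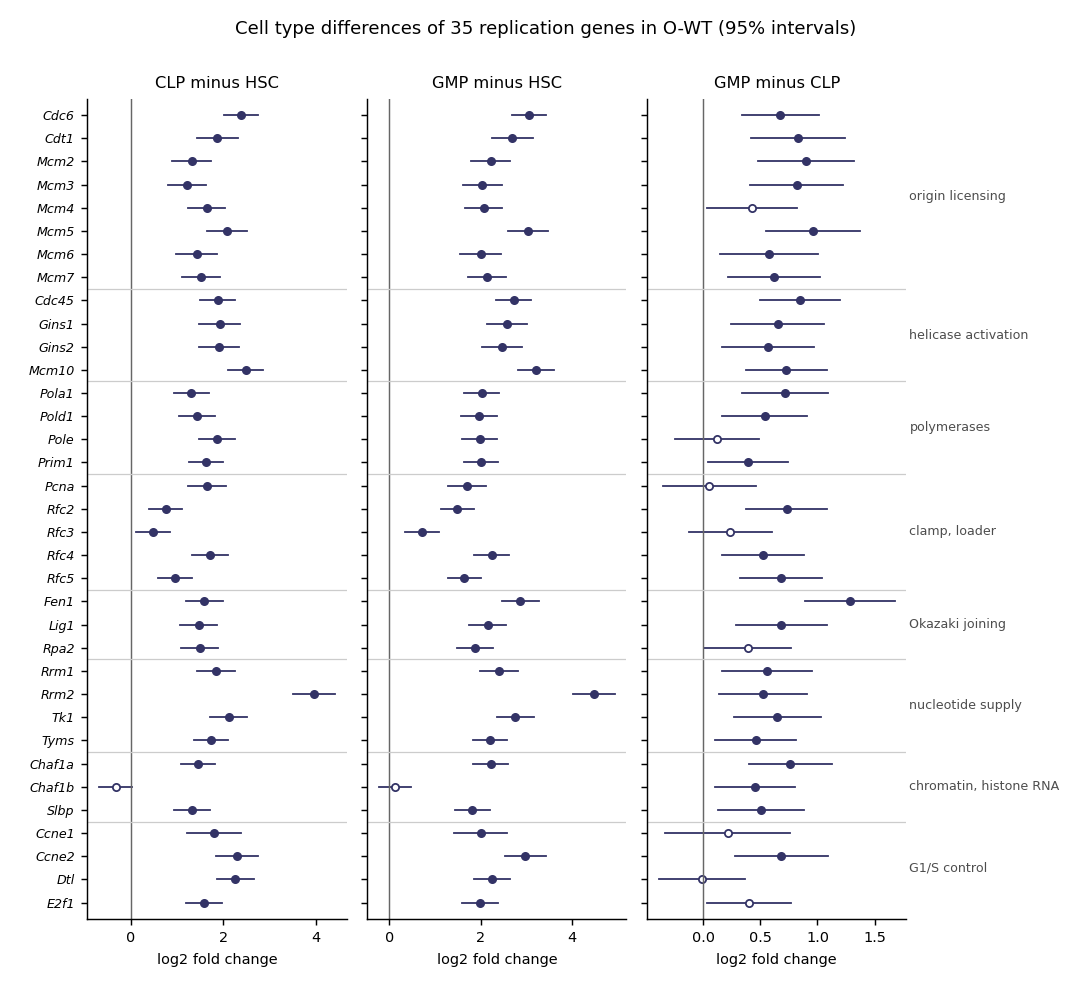
Log2 fold changes of the 35 members between cell types in O-WT with 95% intervals, filled where the adjusted p was below 0.05, with a scale of its own for GMP minus CLP. Rrm2 stands furthest to the right in the comparisons with HSCs (3.96 and 4.48), Chaf1b crosses 0 in both, and Fen1 leads the comparison of GMPs with CLPs (1.28).

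Between the progenitors the difference was smaller and rested more on how the data were scaled. In GMPs 27 of the 35 members were called higher than in CLPs and none lower, where 27.2% of all genes were called higher and 62.1% in all, and 18 did not overlap (23.0% of all genes). The members' median log2 fold change was 0.58, and that of all genes was -0.32. Scaling by the upper quartile instead of TMM moved the median of all genes to -0.74 and left 12 members called, 9 higher and 3 lower. The share of higher genes among all called was 43.8% with TMM and 23.5% with the upper quartile. At an unadjusted p below 0.01 the count under TMM was 22 members, with 49.6% of all genes. Relative to the median of all genes the members stood at 0.89 with TMM, 0.88 with DESeq2's size factors and 0.90 with the upper quartile. The mean of the members' sum was 3275 CPM in O-WT CLPs and 5145 CPM in GMPs, and 3806 and 4212 CPM when levels were taken from the counted total without TMM. Without O-WT CLP replicate 3 the count was 15, and the members' median 0.40.

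Fen1 led this comparison, with a log2 fold change of 1.28 ± 0.19 (edgeR adjusted p = 2.36e-06), and Mcm5 and Mcm2 followed at 0.96 ± 0.20 and 0.90 ± 0.20. Mcm5 was 152, 142, 89.4 and 168 CPM in O-WT CLPs and 255, 354, 282 and 223 CPM in GMPs, and Mcm2 163, 151, 89.3 and 165 CPM in CLPs and 256, 351, 262 and 230 CPM in GMPs. Neither overlapped.

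At the other end, Dtl was 126, 109, 81.7 and 143 CPM in O-WT CLPs and 122, 134, 132 and 86.0 CPM in GMPs, Pcna was 210, 182, 98.6 and 188 CPM in CLPs and 199, 223, 159 and 148 CPM in GMPs, and Pole, the catalytic subunit of polymerase epsilon, was 181, 158, 106 and 174 CPM in CLPs and 174, 196, 190 and 137 CPM in GMPs. All of these overlapped. Their log2 fold changes were -0.01 for Dtl, 0.06 for Pcna and 0.12 for Pole, and the 95% intervals ran from -0.39 to 0.37, from -0.35 to 0.46 and from -0.25 to 0.49. With the upper quartile all 3 were called lower in GMPs, at -0.44, -0.37 and -0.30.

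O-WT CLP replicate 3, the library with 4792380 reads, had the lowest members' sum among CLPs (2165 CPM against 3301 to 3846 in the other O-WT CLP libraries) and the highest sum of receptor genes (5014 CPM against 2414 to 3099). Scaled to the counted total without TMM, its members' sum was 3233 CPM against 3846 to 4117 CPM, so that the gap was smaller. The part of the receptor reads in it was not tested. In the comparison of CLPs with HSCs the count of members called stayed between 33 and 34 whichever library was left out.

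Mice that drank NR gave the same comparison in other libraries. In O-NR 34 members were higher in CLPs than in HSCs and 34 in GMPs than in HSCs (19.8% and 25% of the 18080 genes tested were called higher, and 40.8% and 45.8% called in all), none was lower, and the medians were 1.90 and 2.25 against 0.11 and -0.08 over all genes. Chaf1b was again the member not called, at -0.02 and 0.14. Rrm2 led again, 20.1-fold and 24.7-fold higher. The libraries did not overlap for 33 and 34 members, where 10.9% and 21.5% of all genes lay wholly above. In GMPs against CLPs 22 members were called higher (18 with the animal as a block), where 25.5% of genes were and 49.3% were called in all, 11 did not overlap (23.2% of all genes), and Fen1 led at 0.87 ± 0.13. Under the upper quartile 12 were called, 8 higher and 4 lower, and the share of higher genes among all called was 27.4%, against 51.7% with TMM. Without O-NR CLP replicate 4 the count was 13, without GMP replicate 4 it was 14, and without CLP replicate 3 it was 15. Relative to the median of all genes the members stood at 0.56 on the log2 scale under TMM and 0.57 under the upper quartile.

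The members also varied together within a cell type, in part through the scaling of the libraries. Over the 24 libraries of cohort 2, Pearson's r of each member with the mean of the other 34 (log2 of CPM plus 0.5, centred per gene) was 0.85 or more for 34 members and 0.05 for Chaf1b, values which share the difference between cell types and the libraries' scaling. Within the 8 CLP libraries all 35 had r above 0.5, from 0.62 for E2f1 to 0.99 for Slbp, and within the 8 GMP libraries all 35 did, from 0.66 for Ccne1 to 0.98 for Mcm4. Chaf1b had 0.76 in CLPs and 0.81 in GMPs. Within the 8 HSC libraries 23 members had r above 0.5 (22 with edgeR's log CPM and a prior count of 2), from 0.95 for Mcm2 down to -0.30 for Gins1, which had few reads there. Without TMM, an alternative chosen after seeing the data, the members above 0.5 numbered 26 in CLPs, 22 in GMPs and 22 in HSCs, the last within what the choice of offset moved, and Chaf1b had 0.38, 0.40 and -0.31. Outside the set, the 10 genes most like the members' mean over the 24 libraries were Atad2, Racgap1, Topbp1, Incenp, Hells, Wdhd1, Rad18, Hist2h2ac, Tacc3 and Rasgrp2, with r from 0.99 to 1.00.

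Of 47 further replication genes, 36 were higher and 1 lower in O-WT CLPs against HSCs (median 1.02), where 9.57% of all genes were called higher, and 41 were higher and 2 lower in GMPs (median 1.56), where 21.0% were. Ticrr and Gmnn, a partner of Topbp1 and the inhibitor of Cdt1, had log2 fold changes of 2.47 and 2.09 in CLPs and 2.67 and 2.95 in GMPs. The one member of that list lower in CLPs was Samhd1, which breaks down deoxynucleotides, at -1.53 in CLPs and -0.78 in GMPs, and Rrm2b, a reductase subunit used outside S phase, was lower in GMPs at -0.53 (edgeR adjusted p = 0.0188). The subunits Orc4 and Orc5 of the origin recognition complex were not called in CLPs or GMPs, while Orc1 was 1.60 and 2.00.

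Of the 12 E2F and pocket protein genes other than E2f1, 6 were higher and 3 lower in CLPs, and 7 higher and 3 lower in GMPs. Over all genes 9.57% were called higher and 20.7% lower in CLPs, and 21.0% and 25.7% in GMPs. The counts of lower genes were thus near the share over all genes. E2f8, a repressor made in S phase, was higher by 2.89 in CLPs and 3.77 in GMPs on the log2 scale, and Rbl2, the pocket protein of resting cells, was lower by -1.23 and -0.80. Of 6 genes for Cdk2 and its regulators, 4 were higher and 2 lower in CLPs (median 0.997). In GMPs 3 were higher and 2 lower (median 0.610), beside the same shares over all genes. Cdkn1c, an inhibitor of the cell cycle that HSCs are known for, was lower at -4.50 in CLPs and -5.21 in GMPs. Its mean over 4 libraries was 25.7 ± 5.5 CPM (SD) for HSCs, 1.10 ± 0.59 CPM for CLPs and 0.70 ± 0.56 CPM for GMPs. Of 16 mitosis genes taken for contrast, all 16 were higher in CLPs and in GMPs than in HSCs, where 9.57% and 21.0% of all genes were. Their medians were 3.30 and 3.63, against 1.64 and 2.15 for the 35 replication members.

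The second question was whether NR changed the set within a cell type. No member was called in HSCs, CLPs or GMPs of cohort 2, and neither was any of the 17364, 19909 and 13486 genes tested (0% called by edgeR's quasi-likelihood test). At an unadjusted p below 0.01 there were 0 of 35 members in HSCs, where 0.726% of genes passed, 0 in CLPs, where 0.412% passed, and 2 in GMPs, where 0.986% passed. DESeq2 called no member in any of the 3 either. The intervals were narrower in GMPs than in HSCs and CLPs. The members' estimated log2 fold changes in GMPs ran from -0.27 to 0.24, and their intervals reached beyond that range.

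**Figure D3:**
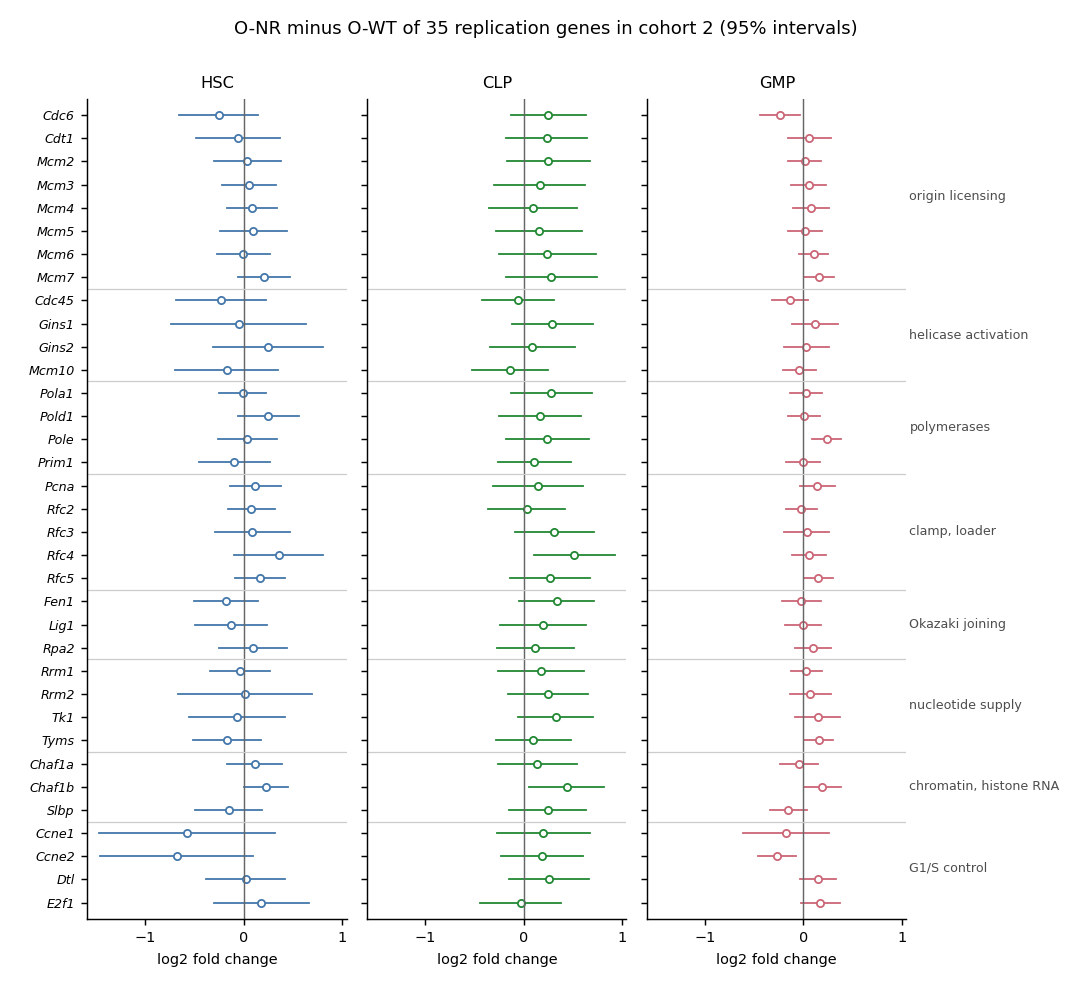
Log2 fold changes of O-NR minus O-WT for the 35 members in HSCs, CLPs and GMPs of cohort 2 with 95% intervals, all open because none was called. The CLP points sit mostly right of 0 with wide intervals, and the GMP intervals are the shortest.

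In HSCs 19 of 35 members had a log2 fold change above 0, where 45.4% of all genes did, and the median was 0.02. The smallest p was that of Chaf1b, at 44.3, 35.4, 34.4 and 34.8 CPM in O-WT and 44.7, 39.0, 47.4 and 48.6 CPM in O-NR. The groups overlapped, and the log2 fold change of Chaf1b was 0.23 (95% interval 0.01 to 0.45, edgeR unadjusted p = 0.0429, adjusted p = 0.995). The members' sum was 981 to 1395 CPM in O-WT HSCs and 1093 to 1316 CPM in O-NR HSCs. The 6 markers of B and plasma cells, none of them at 0 in either group, summed to 49.9 to 468 CPM in O-WT HSCs and 24.6 to 45.8 CPM in O-NR HSCs, and their part in these values was not tested.

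In CLPs 32 of 35 members were above 0, where 49.3% of genes were, with a median of 0.20, and of 0.00 or just below over all genes. That count rested in part on O-WT CLP replicate 3, without which 26 were above 0 and the median was 0.06. Rfc4, a subunit of the clamp loader, had the smallest p. It was 30.1, 27.5, 17.0 and 31.4 CPM in O-WT and 33.6, 49.4, 28.9 and 43.6 CPM in O-NR, with overlap, and its log2 fold change was 0.52 (95% interval 0.11 to 0.93, edgeR unadjusted p = 0.015, adjusted p = 1.00). Fen1 was the member whose CLP libraries did not overlap, at 40.1 to 71.6 CPM in O-WT and 73.3 to 85.0 CPM in O-NR, where 1.20% of all genes lay wholly above. Its log2 fold change was 0.34 ± 0.19 (edgeR unadjusted p = 0.0836).

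In GMPs 24 members were above 0, where 49.4% of genes were, and the members below 0.01 were Pole and Ccne2. Pole was 174, 196, 190 and 137 CPM in O-WT and 203, 209, 182 and 196 CPM in O-NR, and Ccne2 was 42.1, 46.2, 35.3 and 31.3 CPM in O-WT and 30.1, 34.0, 26.7 and 32.7 CPM in O-NR. Both overlapped between treatments. The log2 fold changes were 0.24 ± 0.07 for Pole and -0.27 ± 0.09 for Ccne2 (edgeR unadjusted p = 0.00414 and 0.00903, adjusted p = 0.905 and 0.959).

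The difference in the NR effect between cell types was tested over the 24 libraries, in comparisons that share groups of libraries. No member was called, where 0.00443% of genes were for CLPs and for GMPs against HSCs and 0% for GMPs against CLPs, and 0.421%, 0.133% and 0.439% of genes were below an unadjusted p of 0.01. For CLPs against HSCs 30 of 35 members were above 0, where 53.5% of genes were, and without O-WT CLP replicate 3 the number was 20. For GMPs against CLPs 2 of 35 were above 0, where 45% of genes were, and 12 without that library. For GMPs against HSCs 13 were above 0, where 45.6% of genes were, and 5 to 21 over the fits that left out 1 library. Ccne2 had the smallest p for CLPs against HSCs. It was 4.44, 4.21, 3.86 and 6.64 CPM in O-WT HSCs, 4.14, 2.09, 2.39 and 3.70 CPM in O-NR HSCs, 24.1, 23.0, 13.8 and 31.8 CPM in O-WT CLPs and 23.7, 28.0, 29.6 and 26.9 CPM in O-NR CLPs. The treatments overlapped in CLPs, and in HSCs the highest O-NR library lay above the lowest O-WT one. The difference was 0.86 on the log2 scale (95% interval 0.22 to 1.51, edgeR unadjusted p = 0.00936, adjusted p = 1.00). For GMPs against HSCs the smallest p was that of Rfc4, at -0.39 (unadjusted p = 0.146), and for GMPs against CLPs that of Cdc6, at -0.57 (unadjusted p = 0.0167, adjusted p = 0.945). Cdc6 in O-NR was 58.5, 78.1, 67.6 and 57.6 CPM in CLPs and 76.9, 78.5, 56.9 and 79.8 CPM in GMPs, 2 sets that overlapped, unlike those of O-WT given above.

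The third question was whether cohort 1 and the withdrawal of NR showed a difference in HSCs. Of the 35 members 34 passed the filter on low counts there, and none was called in O-NR against O-WT, O-NR-RC against O-NR or O-NR-RC against O-WT, comparisons that share libraries with each other. None was below an unadjusted p of 0.01 either, where 0.0480%, 0.0360% and 0.0780% of the 33350 genes tested passed. The members with a log2 fold change above 0 numbered 17, 12 and 8 of 34, where 49.1%, 56.6% and 51.8% of all genes were above 0.

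**Figure D4:**
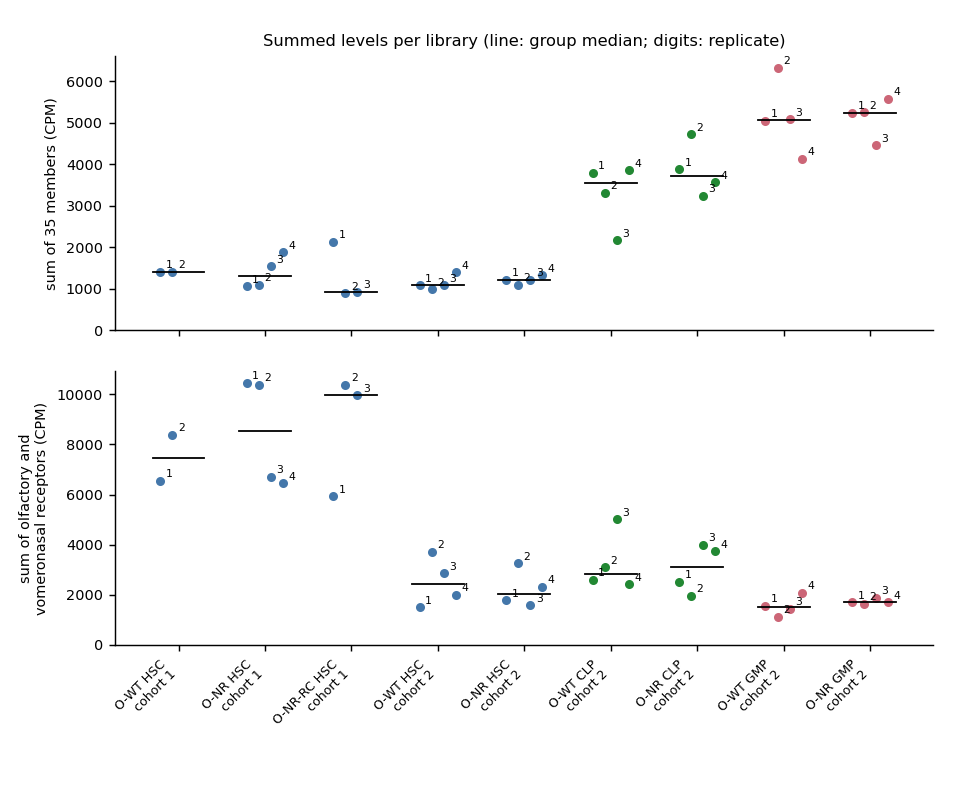
Sum of the 35 members (upper panel) and of the olfactory and vomeronasal receptor genes (lower panel) in each of the 33 libraries, in CPM, with the group median as a line and the replicate number beside each point; the cohorts are scaled separately by TMM. Within cohort 1 the libraries with the highest receptor sums have the lowest members' sums.

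The members' sum in the O-NR-RC libraries was 2131, 886 and 919 CPM, in O-NR 1053, 1088, 1539 and 1870 CPM, and in O-WT 1401 and 1404 CPM. Replicate 1 of O-NR-RC was thus the highest of the 9 libraries, and the other two O-NR-RC libraries were the lowest. Without replicate 1 the median of the members was -0.57 against O-NR and -0.56 against O-WT, with 1 of 34 above 0 in each, and without replicate 2 it was 0.13 and 0.12, with 29 above 0 in each. The 4 libraries with receptor sums of 9957 to 10459 CPM had members' sums of 886 to 1088 CPM, and the 5 with receptor sums of 5934 to 8389 CPM had 1401 to 2131 CPM. These gaps came largely with the TMM scaling. Levels taken from the counted total without TMM gave members' sums of 1406, 1151 and 1190 CPM in O-NR-RC, 1275, 1321, 1298 and 1431 CPM in O-NR, and 1199 and 1338 CPM in O-WT, with the same library highest among O-NR-RC and all 9 within 1151 to 1431 CPM. The part of the receptor reads in the members' levels was not tested.

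In each comparison of cohort 1 the member with the smallest p is given by library. Pola1, the catalytic subunit of polymerase alpha, was 46.8 and 49.6 CPM in O-WT, 37.0, 38.1, 57.0 and 71.3 CPM in O-NR, and 71.7, 25.5 and 23.1 CPM in O-NR-RC. Replicate 1 of O-NR-RC lay above both O-WT libraries and the other O-NR-RC libraries lay below them. Against O-WT the log2 fold change of Pola1 in O-NR-RC was -0.26 (95% interval -1.31 to 0.78, edgeR unadjusted p = 0.596), and it was 0.01 without replicate 3. Rrm2 in O-NR-RC against O-NR was -0.22 (unadjusted p = 0.333), from 12.2, 7.44 and 7.99 CPM against 9.68, 9.64, 11.9 and 11.9 CPM, and Ccne1 in O-NR against O-WT was -0.25 (unadjusted p = 0.299), from 6.45, 6.65, 5.86 and 4.70 CPM against 7.79 and 6.27 CPM. Both overlapped.

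Over the HSC libraries of both cohorts, with a term for the cohort, no member was called, and 0.103% of the 23413 genes tested were below an unadjusted p of 0.01. Rfc4 had the smallest p, at 0.25 on the log2 scale (95% interval -0.08 to 0.59, unadjusted p = 0.13). The effect of NR differed between cohorts for no member at an adjusted p below 0.05, with 0.137% of genes below an unadjusted p of 0.01. Chaf1b came nearest, at 0.68 (cohort 2 minus cohort 1, 95% interval 0.13 to 1.22, edgeR unadjusted p = 0.0172, adjusted p = 0.979), with 73.0 and 50.9 CPM in O-WT and 35.8, 34.4, 50.8 and 59.8 CPM in O-NR of cohort 1. The O-WT library with 73.0 CPM lay above all O-NR ones, and the other was within their range.

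Fen1 was the member missing from the tests of cohort 1, and the reason it failed the filter could be read from its counts. It had 1.38 to 3.24 CPM in the 9 libraries of cohort 1 and 16.5 to 26.9 CPM in the 8 HSC libraries of cohort 2. The log2 ratio of the mean levels, taken over O-WT and O-NR libraries with 0.5 CPM added to each mean, was -3.05. For the other 34 members it lay between -0.23 and 1.54. In the annotation (Gencode M21, mm10) Fen1 is on the minus strand at chr19:10199132-10204169, and 84.2% of its exon bases lie under exons of Gm10143 and Tmem258 on the other strand. Over all genes above 20 CPM in either cohort the same ratio was lower where more of a gene's exons lay under another strand's gene. The median was 0.13 for 6333 genes with no such overlap and -0.08 for 683 genes with over 10% to 30%. It was -0.88 for 36 genes with over 50% to 70% and -1.57 for 12 genes with over 70% to 90%. Fen1 has an overlap in that last range. With means of 1.93 CPM in O-WT and O-NR of cohort 1 and 19.7 CPM in cohort 2, it was below 20 CPM and not among the 12.

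Gins2 and Chaf1a did not follow that order. They have 67.3% and 52.5% of their exon bases under Gse1 and Ubxn6, and their ratios were 0.38 and 0.28. Whether reads were counted by strand in each cohort is not given in the sources used here, and the part of the counting in the Fen1 difference was not tested. Levels of Fen1, Gins2 and Chaf1a in either cohort, and of Ccne2, Rfc2, Rfc4 and Rfc5 with 10.7% to 17.4% overlap, are therefore less certain than those of the other members. Mcm10 and Tk1 had the highest ratios of the members, 1.39 and 1.54, on scales set separately in each cohort. Copies of Tyms and Pcna that could share their reads (Tyms-ps, Pcna-ps1 and Pcna-ps2) had at most 2.22 CPM in any library.

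**Figure D5:**
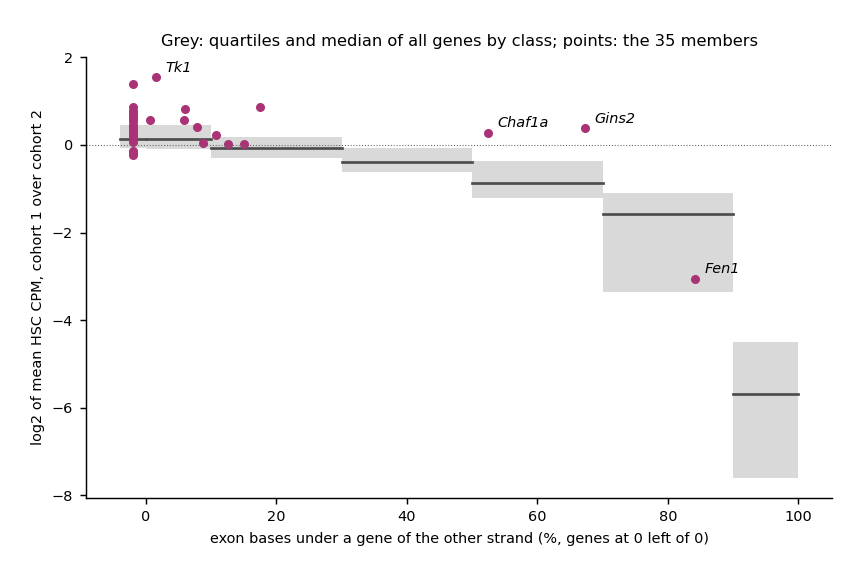
Log2 ratio of the mean HSC level in cohort 1 over cohort 2 against the percentage of exon bases under a gene of the other strand. Means are of O-WT and O-NR libraries, with 0.5 CPM added to each. The quartiles and median of all genes above 20 CPM per class are in grey, and the 35 members are points. Fen1 lies at -3.05 within the grey box of its class of overlap, and Gins2 and Chaf1a lie above theirs. Fen1 and Gins2 were below 20 CPM in both cohorts and are not among the genes of the boxes.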

How the data were processed

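Raw gene counts of 33 libraries were deposited. To make them the authors removed adapters, mapped reads by STAR (mm10, Gencode M22) and used featureCounts. The strand setting and the treatment of reads with several positions are not given in the sources used here. Groups, cohorts and replicate numbers were taken from the labels, treatment details and sort gates from the study's methods. Genes with more than 3 CPM in as many libraries as the smallest group holds were tested with edgeR 4.0.16 (TMM, quasi-likelihood test, R 4.3.3), Benjamini–Hochberg adjusted over all genes tested. Cell types were compared within O-WT and within O-NR, treatments within each cell type and cohort, and DESeq2 1.42.0, other scalings, filters, a replicate block and each library left out were alternatives. The method was tested on simulated data. No pair of libraries in a group agreed within sampling noise (chi-square over degrees of freedom of 1.91 or more). In cohort 1 the pairs were uneven. In O-NR the value was 1.91 for replicates 1 and 2 and 3.65 for replicates 3 and 4, against 48.6 to 66.8 between these pairs. In O-NR-RC it was 3.76 for replicates 2 and 3, against 92.7 and 66.8 with replicate 1. Libraries of a condition that share a replicate number carry 1 animal's name across cell types in the deposited file names; their deviations from group means had a mean r of -0.02 in O-WT and -0.03 in O-NR.

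All 35 members are accounted for by role. Values in every library are given for the 3 members with the largest and smallest log2 fold change in each O-WT comparison, members below an unadjusted p of 0.01 or else the smallest p elsewhere, and the highest level per kb of each role. Members and lists were chosen with earlier results of these data known.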

Additional observations from a re-analysis of the deposited data

Results flagged for a closer look

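Of 252 sets of 4 libraries (levels after TMM scaling), 13 had 1 library far from the other 3 by Dixon's test at the 95% level, and chance alone gives about 1 in 20. In HSCs these were Mcm2 in O-WT replicate 4 at 84.3 CPM (next 51.6), Chaf1b in O-WT replicate 1 at 44.3 CPM (next 35.4), Cdc6 in O-NR replicate 1 at 9.80 CPM (next 8.85), Mcm7 in O-NR replicate 2, the lowest at 74.3 CPM (next 103), and Gins2 in O-NR replicate 4 of cohort 1 at 13.5 CPM (next 7.88). In CLPs Prim1 stood out in O-NR replicate 2 at 65.7 CPM (next 54.1).

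In GMPs the O-WT replicate 4 was lowest for Rfc3 at 19.7 CPM (next 26.6) and Tk1 at 52.8 CPM (next 74.8), and O-WT replicate 2 highest for Chaf1a at 181 CPM (next 141) and Slbp at 117 CPM (next 91.3). In O-NR GMPs Cdc6 was lowest in replicate 3 at 56.9 CPM (next 76.9), and replicate 4 was highest for Rfc3 at 28.3 CPM (next 23.8) and Tk1 at 89.4 CPM (next 71.4). In no member did the NR effect differ between cell types or cohorts at an adjusted p below 0.05 by edgeR's quasi-likelihood test.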

How the results depend on the processing

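Members called in CLPs or GMPs against HSCs kept their direction and numbered 32 to 34 under every scaling, filter, tool, block and left-out library tried. For GMPs against CLPs the counts were 12 in O-WT and 12 in O-NR under the upper quartile, and 15 to 30 and 13 to 24 over the fits that left out 1 library. With replicate numbers as a block the counts were 33, 34 and 27 in O-WT and 34, 34 and 18 in O-NR for CLPs against HSCs, GMPs against HSCs and GMPs against CLPs, and 0 for NR within each cell type.

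The numbers do not pair O-WT with O-NR mice. There the block gave 6 members called for the difference in NR effect between cohorts (0 without it), with 3017 genes higher and 276 lower among all tested, and Chaf1b at 0.91 (edgeR adjusted p = 0.0152). The cause was not tested. Without TMM scaling the mean sum of the members was 1268 CPM in O-WT HSCs of cohort 1, 4212 CPM in O-WT GMPs and 4455 CPM in O-NR GMPs.

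Values that changed sign were uncalled under TMM. Under the upper quartile Chaf1b was -0.083 in GMPs against HSCs in O-WT and, in O-NR, 0.063 in CLPs and -0.10 in GMPs against HSCs (-0.0066 with all 24 libraries), and in GMPs against CLPs Pole was -0.30 and Pcna -0.37 in O-WT and -0.25 and -0.32 in O-NR. Dtl in GMPs against CLPs was 0.16 with DESeq2's size factors, 0.16 with DESeq2, 0.34 with no filter, 0.25 above 1 CPM, 0.0040 with the block and 0.043 with all 24 libraries in O-WT, and 0.046 and 0.044 with no filter and above 1 CPM in O-NR. Leaving out 1 library gave -0.17 to 0.21 for Dtl, -0.048 to 0.31 for Pole and -0.16 to 0.24 for Pcna in O-WT GMPs against CLPs, -0.093 to 0.12 for Pcna in O-NR, -0.0047 to 0.16 for Chaf1b in O-NR GMPs against HSCs, and -0.99 to 0.0071 for Pola1 in O-NR-RC against O-WT.

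Depth limited the members with few reads in HSCs: the NR effect on Ccne2 and Ccne1 there had intervals of -1.47 to 0.10 and -1.47 to 0.32. Both were also near the receptor background. Their means in O-NR HSCs of cohort 2 were 0.881 and 1.08 CPM per kb, where the receptor genes reached 0.612, and both lay below 2 times that level. In cohort 1 the receptor genes reached 1.58 CPM per kb in O-WT, 1.97 in O-NR and 1.95 in O-NR-RC. There 5, 7 and 7 members had means below 2 times those levels. Fen1, at 0.762, 0.817 and 1.14, was below the levels themselves.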
